A study of Mus musculus with 4 samples.

Results

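Pcp4, Plac8, Cd38, Zeb2, Tyrobp, Ffar2, Ackr2 and Nt5e were examined in splenic B cells that had taken part in a germinal center (GC) response, as genes that mark cells called Activated/Memory in a single-cell RNA sequencing (scRNASeq) experiment on DOCK8. The 8 genes were chosen by their measured levels across the cells of these libraries in earlier results, and all 8 are among the 32285 genes of both mRNA count matrices. Levels across B-cell states and co-detection in single cells are therefore given below as a description with no test. Differences between genotypes and between sorts were tested over mice.

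MD4 B cells bear a receptor transgene against lysozyme of hen egg (HEL). CD45.2+ MD4 cells, Dock8 wt/wt in one group and Dock8 cpm/cpm in the other and with the BCL2.Tg transgene in both, were transferred together with CD45.1+ Dock8 wt/wt MD4 cells into wild-type CD45.1+ mice, the mice were immunized with HEL-coupled sheep red blood cells (SRBC-HEL), and HEL+ CD95+ cells were sorted from spleen on day 8. Cells of 6 recipient mice, 3 per group, were told apart by 6 hashtag antibodies, and the CD45.2+ and CD45.1+ sorts were each run as 1 library of mRNA and 1 of hashtags. Sort, library and the BCL2.Tg transgene therefore cannot be told apart. Neither can genotype and sex of the transferred CD45.2+ cells, since per the study the wt/wt cells came from males and the cpm/cpm cells from females. Sex-linked genes were also called between the sorts (below), so sex cannot be told apart from sort either. The recipients were CD45.1+ as well, so the CD45.1+ sort relied on HEL binding to leave host cells out. Per the study's methods, its mice were young adults that were matched for age within an experiment.

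Most of the 8 genes are known from cells outside the germinal center. CD38 is a surface enzyme that consumes NAD, kept on naive and memory B cells of the mouse and low on GC B cells, and CD73, the product of Nt5e, makes adenosine outside the cell and is used as a surface marker of mouse memory B cells. ZEB2 is a zinc-finger repressor that binds E-boxes, and TYROBP (DAP12) is an adaptor that carries an activation motif for receptors of myeloid and natural killer (NK) cells. FFAR2 senses short-chain fatty acids, ACKR2 is an atypical receptor that scavenges inflammatory CC chemokines, PCP4 is a small protein that binds calmodulin, and PLAC8 is a small cysteine-rich protein.

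In the GENCODE gene models of the GRCm38 build Pcp4 is at chr16:96467606-96525793 on the plus strand, Plac8 at chr5:100553725-100572245 on the minus strand, Cd38 at chr5:43868553-43912375 on the plus strand and Zeb2 at chr2:44983632-45117395 on the minus strand. Tyrobp is at chr7:30413760-30417585 on the plus strand, Ffar2 at chr7:30818348-30823775 on the minus strand, Ackr2 at chr9:121898355-121911074 on the plus strand and Nt5e at chr9:88327197-88372092 on the plus strand. Pcp4 overlaps the model of Igsf5 (96361794 to 96525580) on the same strand. Igsf5 held 0 UMIs (unique molecular identifiers, counted molecules) in kept CD45.2+ cells and 1 in CD45.1+ cells, against 1067 and 159 for Pcp4. These counts do not show whether reads that fit both genes were lost to Pcp4. Cd38 overlaps Gm16014 on the same strand, so reads of this pair could have been shared. Zeb2os and Gm16015 overlap Zeb2 and Cd38 on the opposite strand.

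Pcp4, Plac8 and Ackr2 were the 3 members whose levels did not overlap between the genotype groups in either sort (below), and the bases before their RefSeq start sites, on the transcript strand in GRCm38.p6, are shown to allow their promoters to be compared. The Plac8 stretch is shorter because it stops at the edge of the gene model.
Pcp4, chr16:96467356-96467605: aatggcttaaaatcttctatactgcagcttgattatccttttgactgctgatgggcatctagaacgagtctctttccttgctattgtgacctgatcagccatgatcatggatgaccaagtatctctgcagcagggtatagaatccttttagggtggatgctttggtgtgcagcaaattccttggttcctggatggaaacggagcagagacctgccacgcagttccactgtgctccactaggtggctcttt
Plac8, chr5:100572246-100572455: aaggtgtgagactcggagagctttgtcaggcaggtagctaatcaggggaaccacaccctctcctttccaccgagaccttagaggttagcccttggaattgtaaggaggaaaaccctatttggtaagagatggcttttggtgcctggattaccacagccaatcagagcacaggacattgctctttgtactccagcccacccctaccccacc
Ackr2, chr9:121898105-121898354: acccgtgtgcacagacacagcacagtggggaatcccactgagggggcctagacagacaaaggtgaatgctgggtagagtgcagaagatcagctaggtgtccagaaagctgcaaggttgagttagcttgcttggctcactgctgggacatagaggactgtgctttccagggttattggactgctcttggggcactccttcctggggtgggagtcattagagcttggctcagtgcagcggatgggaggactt
The E-box bound by ZEB proteins (CACCTG, or CAGGTG on the other strand) and the GC box (GGGCGG or CCGCCC) were searched on both strands in windows of 300 bases, 250 before and 50 after the start site. RefSeq windows were found for 7 of the 8 genes, all but Tyrobp. The E-box was in 1 of the 7, Pcp4, against 22.6% of all genes, and the GC box was in 3 of the 7, Zeb2, Ffar2 and Nt5e, against 38.2% of all genes. A site is shown for Pcp4, the member with an E-box, and for Nt5e, the member whose levels did not follow the other 7. The motif is in capitals.
Pcp4, E-box at base 30 after the start, chr16:96467623-96467652: caggcgttcagaCAGGTGaatgcctctcat
Nt5e, GC box at 24 bases before the start, chr9:88327573-88327602: gcgggtctgtccCCGCCCcgccctcctcta
The 250 bases before the RefSeq start site of Nt5e were 72.0% G and C. The other 6 genes had 46.8% to 56.8%, and the median over all windows was 52.4%. The RefSeq start sites of Nt5e and Cd38 lie 412 and 256 bases inside their GENCODE gene models. Their stretches, and the Nt5e site shown, are therefore within the models and not upstream of them. A matching motif is a description of these letters and not a binding site.

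After hashtag demultiplexing and cell filters, 6488 CD45.2+ and 3204 CD45.1+ cells were kept of 24241 and 5232 deposited barcodes, and the CD45.2+ number is well below that of the study. The 2 sorts shared 38 deposited barcodes and 6 kept ones. Non-plasma B cells numbered 1226 to 1927 per mouse in CD45.2+ Dock8 wt/wt cells, 38 to 88 in CD45.2+ Dock8 cpm/cpm cells and 269 to 629 in CD45.1+ cells, and the summed UMIs per mouse ran from 298916 to 12621276. Dock8 transcript stood at 112, 119.6 and 105 CPM (the UMIs of a gene scaled to a common total per mouse) in the CD45.2+ wt/wt cells of mice 1 to 3 and at 105, 110.4 and 95.8 CPM in the cpm/cpm cells. The transcript level therefore does not check the genotype labels. In bulk sums such as these, fewer cells of a kind and less RNA per cell cannot be told apart.

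The cells fell into 17 clusters, which were formed without the 8 genes and named from the study's marker lists without the 8 genes. The Activated/Memory-like cluster held 858 cells, 598 CD45.2+ and 260 CD45.1+, and its leading genes included 1700048O20Rik, Serpinb1a, Capg, Pdlim1, Zbtb32, Hhex, Gpr34, S100a10 and Cxcr3. Its name rests on 12 of the study's markers among its 50 leading genes, which also held 9 markers of EarlyGC2. The B-cell genes Cd79a (2771 CPM) and Ms4a1 (1692 CPM) had UMIs in all of its 598 CD45.2+ cells. EarlyGC1-like cells formed 2 clusters, a larger one of 1615 cells and one of 423 cells led by Clec2i. The edge of the cluster depended on the clustering: with the 8 genes included, an Activated/Memory-like cluster of 1512 cells was found, which held 93.1% of the 858 cells while these made up 52.8% of it. Names were rebuilt from the data, so a cluster here need not hold the same cells as the study's.

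The 7 members other than Nt5e had higher mean levels in the Activated/Memory-like, EarlyGC1-like, LZ1-like and Activated2-like cells than in the LZ2-LZ4-like light zone, dark zone (DZ) and plasma cell-like cells. EarlyGC2-like cells were high in 5 of the 7 and not in Ffar2 (14.5 CPM against 12.7 CPM in LZ2-LZ4-like CD45.2+ cells) or Pcp4 (15.4 against 5.90 CPM). The label therefore fits Pcp4, Plac8 and Tyrobp in part and fits Cd38, Zeb2, Ffar2 and Ackr2 as genes of a wider set of states. It is not borne out for Nt5e. Levels are CPM within a state, as the mean ± SD over mice, for CD45.2+ Dock8 wt/wt cells (n = 3) and for the CD45.1+ cells of all recipients (n = 6).

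Pcp4 was the member most tied to the Activated/Memory-like cells. In CD45.2+ cells Pcp4 stood there at 82.7, 61.1 and 80.0 CPM in mice 1 to 3, a mean of 74.6 ± 11.7 CPM. The Activated2-like cells (61.3 ± 31.0 CPM), the larger EarlyGC1-like cluster (55.4 ± 10.6 CPM) and the LZ1-like cells (53.1 ± 7.06 CPM) came next, and these 3 states did not differ beyond their spread. Mice of the Activated2-like cells (29.0 to 90.9 CPM) and of the larger EarlyGC1-like cluster (46.1 to 66.9 CPM) overlapped those of the Activated/Memory-like cells. Those of the LZ1-like cells (44.9 to 57.5 CPM) lay below them. In DZ3-like cells Pcp4 stood at 1.15, 1.03 and 8.94 CPM in mice 1 to 3. In CD45.1+ cells Pcp4 was again highest in the Activated/Memory-like state at 60.7 ± 36.2 CPM, while the larger EarlyGC1-like cluster held 13.2 ± 10.9 CPM.

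Plac8 was high in the activated and early states. Its level in Activated/Memory-like CD45.2+ cells was 2015, 2013 and 2568 CPM in mice 1 to 3, against 35.6, 52.5 and 118 CPM in DZ3-like cells. EarlyGC2-like cells (2188 ± 420.2 CPM) and Activated/Memory-like cells (2199 ± 319.9 CPM) did not differ beyond their spread, and the larger EarlyGC1-like cluster followed at 1753 ± 417 CPM. In CD45.1+ cells the same pair led, with 2554 ± 401 CPM in EarlyGC2-like and 2539 ± 699.5 CPM in Activated/Memory-like cells. Plasma cell-like cells held 522 ± 113 CPM in the CD45.2+ sort and 199 ± 112 CPM in the CD45.1+ sort, above the dark zone states in the same sort.

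Cd38 and Zeb2 both had a higher mean in EarlyGC1-like than in Activated/Memory-like cells. Cd38 was highest in LZtoPrePC/Memory-like cells at 459 ± 76.0 CPM, followed by the Clec2i-led (326 ± 37.2 CPM) and larger (308 ± 44.4 CPM) EarlyGC1-like cells, and stood at 222, 248 and 289 CPM in the Activated/Memory-like cells of mice 1 to 3. Zeb2 was highest in the Clec2i-led (266 ± 47.7 CPM) and larger (248 ± 14.7 CPM) EarlyGC1-like clusters and stood at 132, 167 and 139.8 CPM in the Activated/Memory-like cells. The other states were ordered differently for the pair: in CD45.2+ cells Cd38 was lower in EarlyGC2-like (220.2 ± 25.9 CPM) and LZ1-like cells (204 ± 3.84 CPM) than in Activated/Memory-like ones, and Zeb2 was higher there (188 ± 22.7 and 217 ± 50.5 CPM). The LZtoPrePC/Memory-like cells were shallow, with a median of 1760 UMIs. In CD45.1+ cells the larger EarlyGC1-like cluster led for both genes, at 357 ± 57.5 CPM for Cd38 and 285 ± 85.8 CPM for Zeb2, against 272 ± 41.9 and 167 ± 38.7 CPM in Activated/Memory-like cells.

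Tyrobp, like Pcp4, had its highest mean over CD45.2+ wt/wt mice in the Activated/Memory-like cells, at 108, 99.8 and 64.7 CPM in mice 1 to 3. Cells of the larger EarlyGC1-like cluster held 71.0 ± 13.6 CPM and EarlyGC2-like cells 62.5 ± 19.0 CPM, so that these 3 states lay within the spread of their mice. In the CD45.1+ sort EarlyGC2-like cells were highest, at 157 ± 137 CPM with mice between 0 and 406 CPM. Among those 111 cells 6 had at least 5 UMIs of the myeloid gene Lyz2, and they held all 506 Lyz2 UMIs and 77 of the 110 Tyrobp UMIs. Without them Tyrobp in the EarlyGC2-like cells, summed over mice, went from 147 to 45.4 CPM. No Activated/Memory-like cell had 5 Lyz2 UMIs, so leaving such cells out could not change Tyrobp there. Summed over all mice of a sort, it stood there at 89.6 CPM in CD45.2+ and 80.7 CPM in CD45.1+ cells. In the same sums T cell-like cells held 146 CPM in CD45.2+ (36 UMIs in 63 cells) and 82.7 CPM in CD45.1+ cells (12 UMIs in 44 cells). In the CD45.2+ wt/wt mice alone T cell-like cells held 24.4 ± 11.3 CPM. LZtoPrePC/Memory-like CD45.1+ cells held 83.6 CPM from 2 UMIs.

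Ffar2 was highest in LZ1-like cells in both sorts, at 73.6 ± 9.45 CPM in CD45.2+ and 129.9 ± 45.4 CPM in CD45.1+ cells. Its level in Activated/Memory-like cells was 46.0, 33.3 and 61.0 CPM in CD45.2+ mice 1 to 3, close to the larger EarlyGC1-like cluster (47.1 ± 19.9 CPM) and above the EarlyGC2-like cells (14.5 ± 5.37 CPM). Ackr2 stood at 74.1, 56.9 and 58.6 CPM in the Activated/Memory-like cells, at 61.9 ± 9.08 CPM in EarlyGC2-like and at 60.8 ± 11.3 CPM in the larger EarlyGC1-like cluster, which did not differ beyond their spread, and at 116 ± 56.6 CPM in the shallow LZtoPrePC/Memory-like cells. In CD45.1+ cells Ackr2 was highest in Activated/Memory-like cells at 64.3 ± 15.9 CPM, close to the larger EarlyGC1-like cluster at 59.5 ± 11.1 CPM.

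Nt5e did not mark these cells. Nt5e stood at 7.91, 9.66 and 3.05 CPM in the Activated/Memory-like CD45.2+ cells of mice 1 to 3, below the DZ3-like cells at 16.1 ± 5.41 CPM, and at 4.90 ± 8.71 CPM in the CD45.1+ cells, where 3 of 6 mice held 0 UMIs. T cell-like cells, which also use CD73, were highest at 42.1 ± 7.77 CPM, although this rests on few UMIs.

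**Figure D1:**
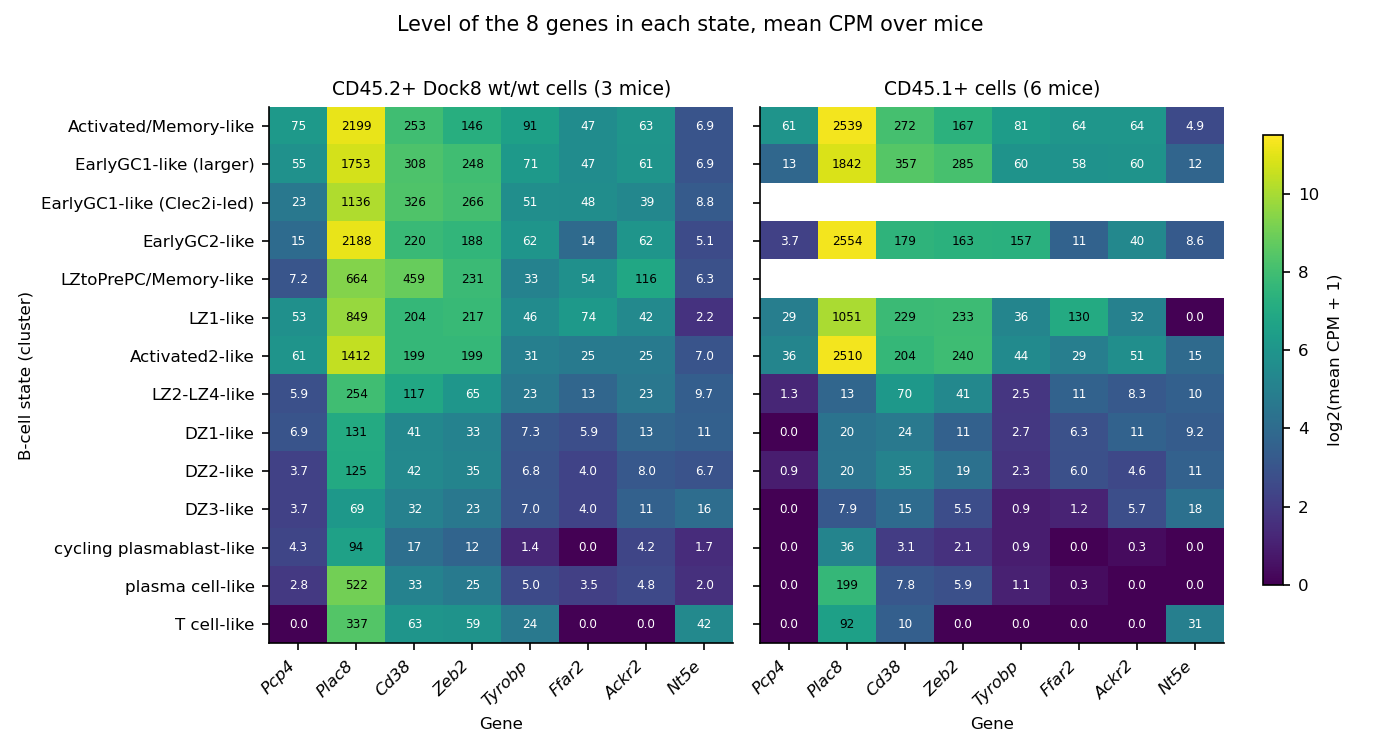
Heat map of the mean level of each of the 8 genes (columns) in each B-cell state (rows), printed as CPM and colored by log2(mean CPM + 1), for CD45.2+ Dock8 wt/wt cells of 3 mice and CD45.1+ cells of 6 mice. States with too few cells in the CD45.1+ sort are blank. Plac8 reached 2199 CPM in Activated/Memory-like CD45.2+ cells and Nt5e 6.9 CPM.

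The ratio of the Activated/Memory-like level to that of all other non-plasma B cells of the same mouse put the members in a similar order. In CD45.2+ wt/wt cells the ratio was 3.21 ± 0.254 for Pcp4, 2.84 ± 0.320 for Plac8, 2.74 ± 0.282 for Tyrobp, 2.0 ± 0.0922 for Ackr2, 1.98 ± 0.300 for Ffar2 and 1.61 ± 0.303 for Cd38 (n = 3 mice). Zeb2 had a ratio of 1.15 ± 0.216, with mice from 0.911 to 1.34, and Nt5e one of 0.791 ± 0.390. In CD45.1+ cells the ratios ran from 2.28 ± 0.491 for Zeb2 to 21.2 ± 22.2 for Pcp4 among the 7 members other than Nt5e, which had 0.459 ± 0.684 (n = 6 mice). The CD45.1+ sort had more LZ2-LZ4-like cells among the others, 1007 against 543, and the part of this in the higher ratios was not tested.

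**Figure D2:**
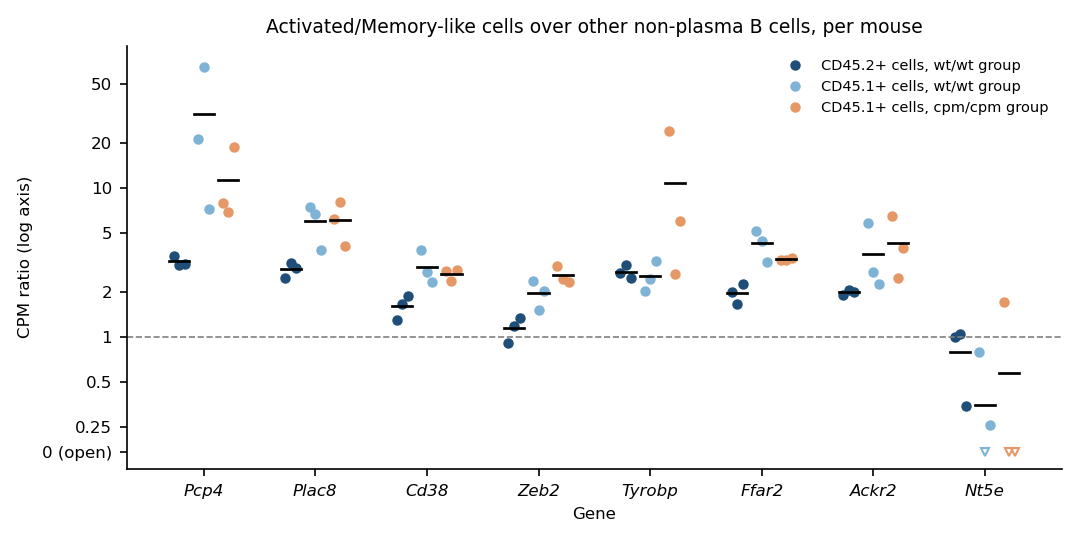
Ratio of CPM in Activated/Memory-like cells to CPM in the other non-plasma B cells for each gene, 1 point per mouse and bars at the group mean, on a log axis with ratios of 0 drawn as open triangles. Pcp4, Plac8, Tyrobp, Ffar2, Ackr2 and Cd38 lie above 1 in all mice shown and Nt5e does not.

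In single cells Plac8 was seen in nearly every Activated/Memory-like cell and each of the others in a minority. With every cell thinned to 2000 UMIs, Plac8 had at least 1 UMI in 93.6% of 598 Activated/Memory-like CD45.2+ cells (95% Wilson interval 91.4 to 95.3), Cd38 in 37.8%, Zeb2 in 22.7%, Tyrobp in 14.7%, Ackr2 in 10.9%, Pcp4 in 9.70%, Ffar2 in 9.53% and Nt5e in 1.17% (0.568 to 2.40). The intervals cover counting error only. T cell-like cells, taken as background for B-cell transcripts, had Plac8 in 27.8% of 54 cells and Pcp4, Ffar2 and Ackr2 in 0 of 54. Their median was 3735 UMIs against 6400 before thinning. Whether Plac8 there was background or a transcript of these cells was not tested. DZ3-like cells had Plac8 in 11.2%, Pcp4 in 0.431% and Nt5e in 3.88% of 232 cells. Nt5e at 1.17% was thus not above its share in DZ3-like cells. T cell-like cells had it in 5.56% of 54, which is no background for this gene since T cells use CD73 themselves.

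An Activated/Memory-like CD45.2+ cell held on average 2.0 of the 8 genes at this depth, a cell of the larger EarlyGC1-like cluster 2.06 and a dark zone cell 0.310 to 0.337, and the most in any cell was 6. Across all 4840 non-plasma CD45.2+ B cells, 23 of the 28 gene pairs were found together in more cells than the product of their shares gives, with a median observed over expected of 1.33. Pcp4 and Ffar2 had the highest ratio, with 27 cells holding both against 11.1 expected (2.43), and Zeb2 and Ffar2 followed with 109 against 59.4 (1.84). The 5 pairs below 1 all held Nt5e, down to 0.595 for Tyrobp and Nt5e. In CD45.1+ cells 24 of 28 pairs were above 1, with a median of 2.14.

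At 2000 UMIs per cell the median ratio was near 1 within a state, although single pairs spread widely around it. Inside the Activated/Memory-like cells the median was 0.992 in CD45.2+ cells, with 13 of 28 pairs above 1, and 1.01 in CD45.1+ cells, with 14 of 28 above 1 and pairs from 0 to 2.37. Inside the larger EarlyGC1-like cluster it was 1.01 in both sorts, with 15 of 28 pairs above 1 in each and pairs from 0.693 to 2.03 in CD45.2+ and from 0 to 5.60 in CD45.1+ cells. Most of these counts were higher with more UMIs per cell. At 4000 UMIs 19 of 28 pairs were above 1 in the larger EarlyGC1-like cluster of the CD45.2+ sort (median 1.04) and 20 of 28 in the Activated/Memory-like cells of the CD45.1+ sort (1.03). Without thinning, 25 of 28 pairs were above 1 in the larger EarlyGC1-like cluster of each sort (medians 1.09 and 1.10 in CD45.2+ and CD45.1+ cells), and 16 and 22 of 28 in Activated/Memory-like cells (1.01 and 1.06). Unthinned cells differ in depth, and the part of depth in these ratios was not tested.

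**Figure D3:**
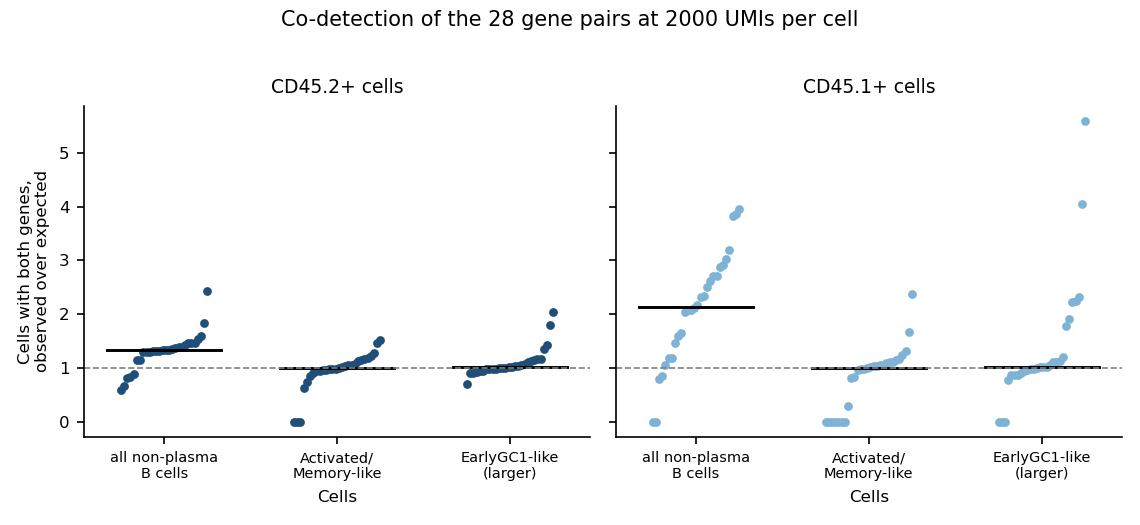
Observed over expected number of cells with both genes of a pair, 1 point per pair (28 pairs, each cell thinned to 2000 UMIs), for all non-plasma B cells, Activated/Memory-like cells and the larger EarlyGC1-like cluster of each sort, with the median as a bar and a dashed line at 1. The median is 1.33 and 2.14 over all cells and between 0.992 and 1.01 within the 2 states.

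Across the 17 clusters of the CD45.2+ sort, which share 1 library, Cd38 and Zeb2 had the most similar levels (Pearson r = 0.97, and 0.98 in CD45.1+ cells), while r of Nt5e with the other members ran from -0.24 to 0.49. Among 7880 genes, those most like the mean of the 8 members included Plaur, the urokinase receptor, Ms4a4c, Fam43a, Ccr6, a chemokine receptor of naive and memory B cells, Hhex, a homeobox factor, Cnn3 and AB124611 (r = 0.96 each), and Plbd1 (r = 0.95). In CD45.1+ cells r was 0.98 for Plaur and 0.96 for Ccr6, but 0.77 for Cnn3. Members other than Cd38 were most like Fcrl5 for Pcp4 (r = 0.89), Gm2a for Plac8 (0.93), Cnn3 for Zeb2 (0.97), Castor1 for Tyrobp (0.96), Trabd2b for Ffar2 (0.95), Pld4 for Ackr2 (0.97) and Aven for Nt5e (0.92). In the CD45.1+ sort the same pairs had r = 0.82 for Fcrl5, 0.88 for Gm2a, 0.8 for Castor1 and 0.93 for Pld4, but 0.6 for both Cnn3 and Trabd2b and 0.45 for Aven.

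Genes of related pathways were listed to place the members. In Activated/Memory-like CD45.2+ cells 14 of 14 memory B cell genes had UMIs, with 2087 CPM in sum against 528 in DZ1-like cells, with Klf2 at 699 CPM, Gpr183 at 193 CPM and Ccr6 at 172 CPM. The 10 GC genes summed to 147 CPM against 1337 CPM in DZ1-like cells, with Fas, which encodes the sorted marker CD95, at 27.6 CPM. The 9 genes of B-1 and innate-like B cells summed to 342 against 54.3 CPM, with Bhlhe41 at 144 CPM and Zbtb32 at 60.5 CPM, and the 7 genes of CD11c+ atypical B cells to 409 against 138 CPM, with Fcgr2b, the inhibitory Fc receptor, at 175 CPM and Cxcr3 at 110.0 CPM. Of 12 genes for TYROBP partner receptors and activation-motif signalling 7 had UMIs, among them the kinase Syk (443 CPM) and the adaptor Hcst (62.7 CPM). The receptors on this list were nearly absent. Over all CD45.2+ non-plasma B cells Trem1, Trem2, Clec5a and Pilrb1 held 0 UMIs, Siglech 2 and Klrk1 7. Next to Nt5e, Entpd1, which supplies its substrate, stood at 18.9 CPM and the adenosine receptor Adora2a at 14.2 CPM. Of 12 myeloid genes 6 had UMIs, 258 CPM in sum where the states of this sort ranged from 139.8 to 741 CPM, with Csf1r, S100a8, C1qa and Cd14 at 0 UMIs, Lyz2 at 1 and Cst3, which B cells express too, giving 978 of the 1036 UMIs. The 10 NK cell genes held 23 UMIs in these cells.

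Whether loss of DOCK8 changed the 8 genes in GC B cells was tested in the CD45.2+ cells, with the summed UMIs of the non-plasma B cells of each mouse (edgeR quasi-likelihood test, Benjamini-Hochberg adjustment over all genes). All 8 genes passed the filter on low counts. Plac8 and Ackr2 fell in Dock8 cpm/cpm cells and no member rose, while 0.205% of 10247 genes tested were called (0.137% lower and 0.0683% higher). Of the 21 genes called 6 were sex-linked, 2 lower and 4 higher. Pcp4, Plac8 and Ackr2 did not overlap between the groups, which 19.2% of genes did in either direction and 6.30% in the lower direction.

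Plac8 stood at 942, 745 and 1160 CPM in wt/wt mice 1 to 3 and at 394, 432 and 628 CPM in cpm/cpm mice 1 to 3. Every cpm/cpm mouse was below every wt/wt mouse, and the log2 fold change was -1.05 (SE 0.155, 95% interval -1.37 to -0.73, edgeR adjusted p = 0.00114). The call was lost when a mouse was required only to have 3 times the hashtag counts of the next hashtag, a rule that kept more cpm/cpm cells (-0.69, edgeR adjusted p = 0.314), and without cpm/cpm mouse 2 (-1, edgeR adjusted p = 0.157).

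Ackr2 stood at 42.9, 29.5 and 33.9 CPM in wt/wt mice and at 11, 10 and 11.2 CPM in cpm/cpm mice, the latter from only 4, 3 and 7 UMIs. The groups did not overlap, and the log2 fold change was -1.82 (SE 0.372, 95% interval -2.59 to -1.05, edgeR adjusted p = 0.0362). The call was lost without any of the cpm/cpm mice (edgeR adjusted p = 0.141 to 0.347), with the 3-fold hashtag rule (-0.81, edgeR adjusted p = 0.204), with plasma cells included (-1.66, edgeR adjusted p = 0.0563) and without the Activated/Memory-like cells (-1.69, edgeR adjusted p = 0.092).

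Pcp4 stood at 30.2, 23.1 and 34.7 CPM in wt/wt mice and at 13.8, 16.7 and 3.19 CPM in cpm/cpm mice, from 5, 5 and 2 UMIs. All cpm/cpm mice were below all wt/wt mice, but the log2 fold change of -1.76 (SE 0.441, 95% interval -2.67 to -0.84) did not pass after adjustment (edgeR adjusted p = 0.114). It passed without wt/wt mouse 2 (-1.91, edgeR adjusted p = 0.0199) or mouse 3 (-1.61, edgeR adjusted p = 0.0461), with the 3-fold hashtag rule (-1.71, edgeR adjusted p = 0.0229) and without the Activated/Memory-like cells (-3.33, edgeR adjusted p = 0.00365), where the cpm/cpm mice held 1, 0 and 2 UMIs and the fitted fold is no bound. Cd38 (-0.34), Zeb2 (-0.21), Tyrobp (-0.14), Ffar2 (-0.86) and Nt5e (-0.55) had edgeR adjusted p between 0.451 and 0.949 and overlapped between groups. These 5 are not shown to be alike in the genotypes.

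CD45.1+ cells from these recipients are Dock8 wt/wt in both groups and serve as the control measured in the same recipients. Of 8676 genes, 0% were called by edgeR between the CD45.1+ cells of the groups, 607 had an unadjusted p under 0.05, and DESeq2 called 0. Pcp4, Plac8 and Ackr2 again did not overlap and were lower in mice given Dock8 cpm/cpm cells, where 11.4% of genes did not overlap in either direction, 3.98% in the lower and 7.43% in the higher one. Plac8 stood at 631, 636 and 1330 CPM in the wt/wt group and at 283, 574 and 607 CPM in the cpm/cpm group, so the gap between the groups was narrow (log2 fold change -0.89, SE 0.25, edgeR adjusted p = 0.462). Pcp4 stood at 14, 7.75 and 25.5 CPM against 3.58, 6.35 and 5.22 CPM (-1.86, SE 0.394, edgeR adjusted p = 0.224). Ackr2 stood at 23.3, 24.9 and 28.8 CPM against 14.8, 19.7 and 21.4 CPM (-0.55, SE 0.195, edgeR adjusted p = 0.628). Tyrobp, at 41.9, 22.7 and 38.8 CPM against 10.7, 24.7 and 19.9 CPM, overlapped (-1.01, SE 0.25, edgeR adjusted p = 0.342). Without wt/wt mouse 2, the lowest of its group in Pcp4 and Tyrobp, both passed (-2.16, edgeR adjusted p = 0.00592, and -1.22, edgeR adjusted p = 0.0269). The 6 cells with at least 5 Lyz2 UMIs held 77 of the 358 Tyrobp UMIs of this comparison, and Lyz2 itself stood at -0.82 (edgeR adjusted p = 0.782). Leaving these cells out was an alternative chosen after seeing the data. Tyrobp then stood at 23.9, 11.7 and 38 CPM in the wt/wt group and at 10.7, 15.9 and 15.7 CPM in the cpm/cpm group (-0.98, edgeR adjusted p = 0.574), and without wt/wt mouse 2 as well it passed (-1.29, edgeR adjusted p = 0.0378).

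**Figure D4:**
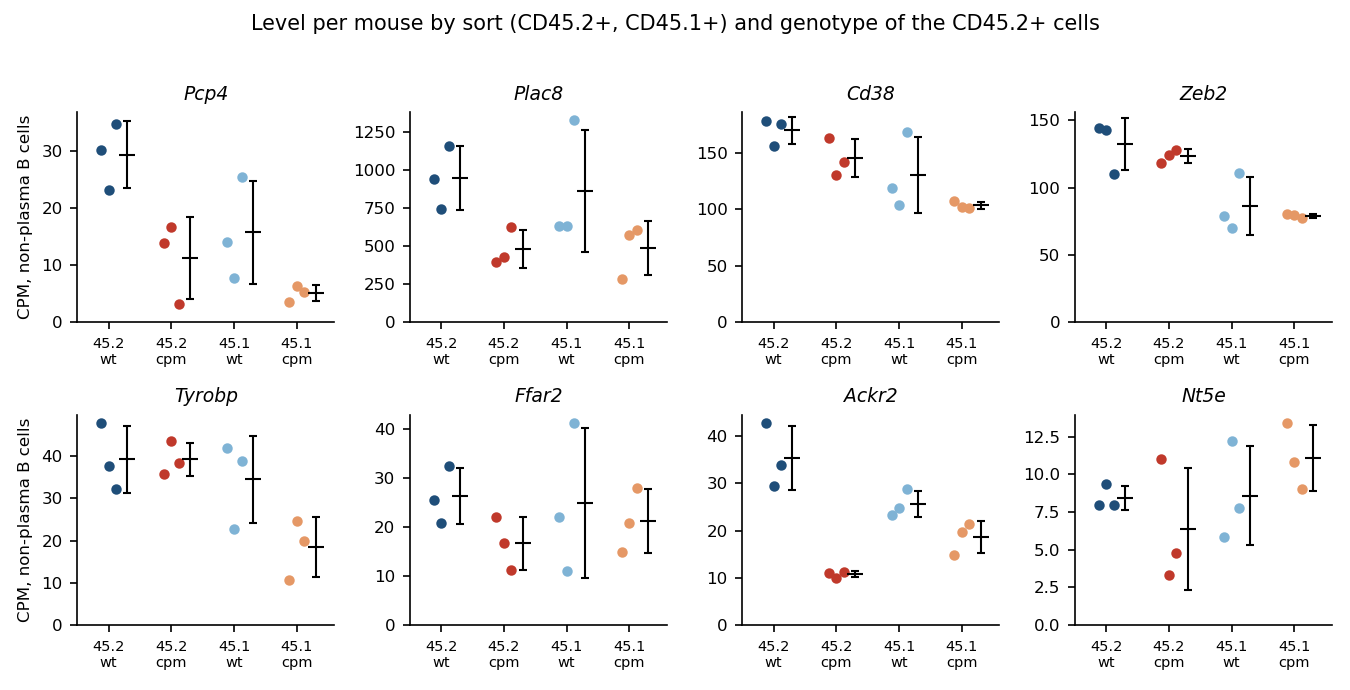
Level of each gene in CPM over the non-plasma B cells, 1 point per mouse, for CD45.2+ and CD45.1+ cells of the wt/wt and cpm/cpm groups, with mean ± SD (n = 3) beside the points and axes from 0. Ackr2 in CD45.2+ cpm/cpm cells lies between 10 and 11.2 CPM, below all other points of that gene.

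The difference between the sorts in the effect of genotype was tested itself, with the mouse as a block, and no member passed, with 0.0328% of 9153 genes called (0.0109% higher and 0.0219% lower). For Plac8 the difference was -0.23 on the log2 scale (95% interval -0.57 to 0.11, edgeR adjusted p = 0.888) and for Pcp4 0.05 (-1.1 to 1.21, edgeR adjusted p = 1). For Ackr2 it was -1.31 (SE 0.407, 95% interval -2.14 to -0.47, edgeR adjusted p = 0.572). The value for Pcp4 turned to -0.62 with the 3-fold hashtag rule and to -2.25 without the Activated/Memory-like cells (edgeR adjusted p = 0.991 and 0.761), so that neither likeness nor difference of its effects in the sorts is shown. Plac8 passed this test without wt/wt mouse 3 (-0.47, edgeR adjusted p = 0.00324).

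The share of Activated/Memory-like cells, a state in which Plac8 and Pcp4 were high though not the only one, was compared between the groups too. Whether it accounts for the levels of these genes was not tested. It was 13.2, 7.37 and 19.1% of non-plasma CD45.2+ B cells in wt/wt mice and 1.79, 7.89 and 4.55% in cpm/cpm mice, which rest on 1, 3 and 4 cells (difference -8.46 percentage points, two-sided exact permutation p = 0.200). In CD45.1+ cells it was 12.7, 4.81 and 21.1% against 3.31, 8.18 and 7.66% (-6.49 percentage points, exact permutation p = 0.300). The groups overlapped in both sorts, and 3 mice against 3 cannot reach a p under 0.10. Without the Activated/Memory-like cells Plac8 and Pcp4 in CD45.2+ cells were lower in the cpm/cpm group too, at -0.86 for Plac8 and -3.33 for Pcp4 on the log2 scale, the latter from 3 UMIs in all cpm/cpm mice. In CD45.1+ cells without that state Plac8 was at -0.65 (edgeR adjusted p = 0.636). Pcp4 did not pass the filter on low counts there. It overlapped between the groups, at 3.98, 1.76 and 10.5 CPM against 2.8, 4.18 and 2.08 CPM. EarlyGC1-like and EarlyGC2-like cells, in which Plac8 was high too, stayed in these sums. The part of their shares in the levels was not tested.

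CD45.2+ BCL2.Tg cells and CD45.1+ cells were compared in the 3 mice of the wt/wt group, with the mouse as a block, since both sorts came from the same animals. Pcp4 was higher in CD45.2+ cells and was the only member called by edgeR, against 3.16% of 10476 genes (1.74% higher and 1.42% lower). Of the 331 genes called 5 were sex-linked, 4 higher and 1 lower in CD45.2+ cells, so the sorts may differ in sex too. Pcp4 stood at 30.2, 23.1 and 34.7 CPM in CD45.2+ and at 14, 7.75 and 25.5 CPM in CD45.1+ cells of mice 1 to 3. It was higher in each mouse, although the ranges overlapped across mice (log2 fold change 0.83, SE 0.191, 95% interval 0.41 to 1.25, edgeR adjusted p = 0.0423). The call was lost without the replicate block (0.71, edgeR adjusted p = 0.174), without wt/wt mouse 1 (0.73, edgeR adjusted p = 0.359) or mouse 2 (0.67, edgeR adjusted p = 0.104), and without the highest doublet scores (0.76, edgeR adjusted p = 0.0617). Within the Activated/Memory-like cells Pcp4 did not differ in that direction (-0.11, SE 0.201, edgeR adjusted p = 0.91), and Plac8 was lower in CD45.2+ cells there (-0.43, SE 0.055, edgeR adjusted p = 1.57e-07). Plac8 stood at 2015, 2013 and 2568 CPM in these CD45.2+ cells of mice 1 to 3, against 2625, 3251 and 3097 CPM in the CD45.1+ ones.

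Of the other members Ackr2 did not overlap between the sorts (24.4% of genes did so, 12.9% in the higher direction), at 42.9, 29.5 and 33.9 against 23.3, 24.9 and 28.8 CPM (0.41, SE 0.15, edgeR adjusted p = 0.165). Zeb2 (0.56, edgeR adjusted p = 0.104), Cd38 (0.38, edgeR adjusted p = 0.107) and Plac8 (0.19, edgeR adjusted p = 0.434) did not pass, nor did Tyrobp (0.13, and 0.54 with edgeR adjusted p = 0.285 without the cells of at least 5 Lyz2 UMIs), Ffar2 (0.06) and Nt5e (-0.03). Without the Activated/Memory-like cells Plac8 (0.57, edgeR adjusted p = 0.0137), Cd38 (0.6, edgeR adjusted p = 0.00388), Zeb2 (0.75, edgeR adjusted p = 0.00255) and Ackr2 (0.62, edgeR adjusted p = 0.0475) passed as higher in CD45.2+ cells. The same 4 passed without wt/wt mouse 3 (0.41, 0.6, 0.95 and 0.58), as did Tyrobp (0.42, edgeR adjusted p = 0.0258). The sorts also differed in the mixture of states among the remaining cells, with 543 and 1007 LZ2-LZ4-like cells over all mice, and the part of that mixture was not tested.

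**Figure D5:**
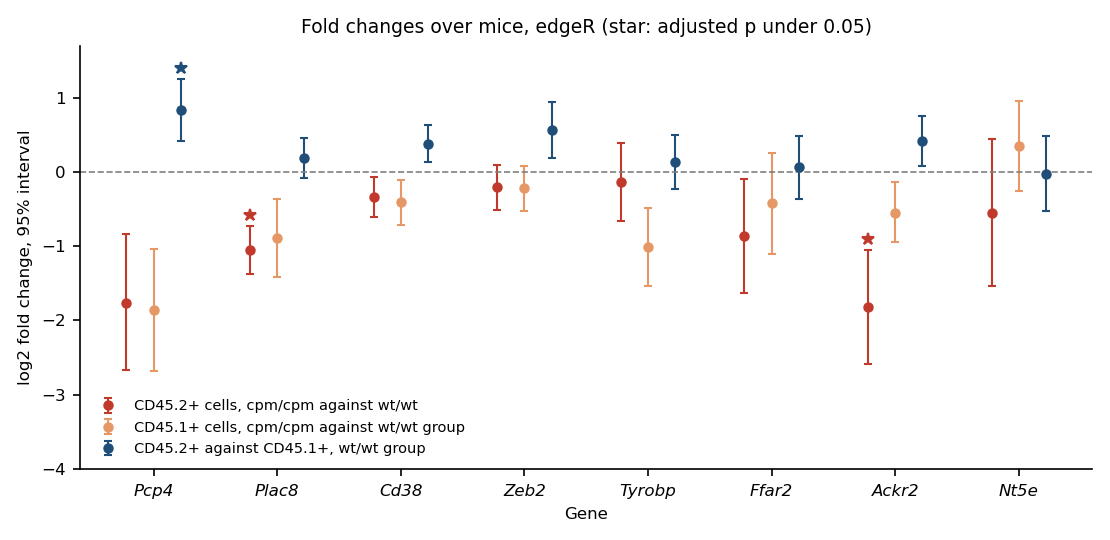
Log2 fold change of each gene with its 95% interval from edgeR for cpm/cpm against wt/wt in CD45.2+ cells, the same groups in CD45.1+ cells, and CD45.2+ against CD45.1+ cells in the wt/wt group. Stars mark an adjusted p under 0.05, which Plac8 and Ackr2 reached in the first comparison and Pcp4 in the last.

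Several listed genes were called between the sorts and none by genotype within a sort. Between the sorts 4 of 14 memory genes were higher in CD45.2+ cells (among them Cd55, S1pr1 and Gpr183, with Gpr183 0.71 and edgeR adjusted p = 0.0259) and 4 of 10 GC genes were lower (Rgs13, Mef2b, Nuggc and Fas, with Rgs13 -0.96 and edgeR adjusted p = 0.00648), with medians of 0.44 and -0.43 against 0 over all genes. Among 8 naive B cell genes 4 were higher, among them Cd55, Btg1 and Ighd, and 3 of 5 tested myeloid genes were lower, Fcer1g, Lyz2 and Ly6c2, with Lyz2 at -5.13 (edgeR adjusted p = 2.78e-06). The Lyz2 UMIs lay in few cells, 506 of 519 in 6 CD45.1+ cells over all mice. Without cells of at least 5 Lyz2 UMIs, Lyz2 and Fcer1g did not pass the filter on low counts and Ly6c2 was at -0.53 (edgeR adjusted p = 0.525), so none of the 3 was called. Both variable genes of the MD4 receptor were higher, Ighv3-8 by 0.52 and Igkv5-43 by 0.69. Among lists close to single members, Syk was higher and Fcer1g lower of 5 tested genes for TYROBP partner receptors and activation-motif signalling. Cxcr4 was higher and Cxcr5 lower of 8 chemokine receptors, Gpr183 higher of 4 metabolite receptors and Nrgn higher of 5 calcium sensors. None of 8 tested B-1, 7 atypical, 6 nucleotide, 5 ZEB-family, 3 plasmacytoid dendritic or 1 NK cell genes was called, and of 2 T cell genes Lck was lower.

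By genotype no listed gene was called in CD45.2+ cells. The median log2 fold change was -0.91 for the 7 atypical B cell genes and -0.59 for 7 tested B-1 genes, against -0.02 over all genes, with Cxcr3 at -0.98 (edgeR adjusted p = 0.573) and Itgam at -0.86 (edgeR adjusted p = 0.338). It was -0.12 for 14 memory genes and -0.04 for 10 GC genes. In CD45.1+ cells, where no gene was called, the medians were -0.62 for atypical, -0.48 for B-1, -0.42 for memory and 0.25 for GC genes. Zfp318 of the naive list, a regulator of IgD expression, was the only listed gene whose genotype effect differed between the sorts (1.53, edgeR adjusted p = 0.00155).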

How the data were processed

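mRNA and hashtag oligonucleotides of CD45.2+ and CD45.1+ MD4 cells were counted in 4 libraries of 6 mice with the 10x Chromium 3' v3.1 kit, whose reads carry UMIs. The authors deposited raw UMI counts per gene and per hashtag for each barcode, made per the submitters' processing notes with Cell Ranger 5.0.1 on mm10 and read into Seurat 4.0, with cells called by EmptyDrops. Hashtags were assigned to mice by HTODemux (quantile 0.99, Seurat 5.3.0, R 4.3.3), singlets with under 10% mitochondrial counts and 100 to 5500 genes were kept, and in the CD45.2+ library 9028 barcodes of 24241 had no hashtag entry. Scrublet, in scanpy 1.11.5, marked 4 cells in each sort, so it was not used to remove cells; doublets between mice were removed by hashtag. Counts were transformed with SCTransform and clustered (2988 variable genes, without the 8 members and 8 sex-linked genes, 30 components, resolution 0.9, seed 1). A cluster was named from the study's marker lists if at least 3 markers were among its 50 leading genes.

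The members and the gene lists were chosen with earlier results of these data known, and the state markers were chosen by the study on these cells. UMIs were summed per mouse over non-plasma B cells and tested with edgeR 4.0.16 (TMM, filterByExpr, quasi-likelihood F test, adjusted p under 0.05). A mouse needed at least 10 cells. Both sorts of a mouse came from the same animal, so its number was a block in the comparison of sorts and in the difference of genotype effects. All 8 members were named in every comparison. Some other genes are not reported here. Shares of cells were compared after thinning each cell to 2000 UMIs, which left out shallower cells, and 95% intervals are Wilson's. Shares over mice were compared with exact permutation tests (scipy 1.17.1). Genes most like the members were those with the highest Pearson r over clusters of log2(CPM + 10), among genes reaching 20 CPM. Alternatives were RLE size factors, DESeq2 1.42.0, no filter on low counts, a 3-fold hashtag rule, 5% mitochondrial counts and 500 genes, removal of the 6% highest Scrublet scores, plasma cells included, the Activated/Memory-like state alone or left out, other resolutions, clustering with the members, removal of cells with at least 5 Lyz2 UMIs, and each mouse left out. Each mRNA test was checked on simulated counts. P-values rest on the spread between mice of 1 experiment. In edgeR the spread of a gene is moderated by that of all genes, so its SE and p do not measure the spread of that gene alone.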

Additional observations from a re-analysis of the deposited data

Results flagged for a closer look

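Plac8 was found in data outside the comparisons. The 9028 barcodes of the CD45.2+ mRNA library that were given to no mouse and have no entry in the hashtag library held 23659 Plac8 UMIs, or 434 CPM over their summed UMIs. The level was 797 CPM in the 6488 singlets of that sort and 604 CPM in 7951 barcodes called doublets. Pcp4 stood at 9.44 and Ackr2 at 17.4 CPM in the unassigned barcodes, against 21.4 and 26.6 CPM in singlets. These barcodes had a median of 5282 UMIs against 6535 in singlets, and entered no test because the mouse and the genotype of the cells are not known.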

How the results depend on the processing

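The number of genes called moved with most choices, and the CD45.2+ cpm/cpm sums held only 38 to 88 cells per mouse. By genotype in CD45.2+ cells 21 genes were called, against 108 with DESeq2, 145 with no filter on low counts, 12 with the 3-fold hashtag rule, 130 with plasma cells included, 12 without the Activated/Memory-like cells and 13 with the 3-fold rule and those cells only, an alternative chosen after seeing the data, as was leaving out cells of at least 5 Lyz2 UMIs, which gave 21, 0, 329 and 3 genes in the 4 comparisons and, without wt/wt mouse 2 as well, 52, 7, 53 and 4. Leaving out each mouse gave 7 to 59 genes, the lowest without cpm/cpm mouse 2 and the highest without wt/wt mouse 3. In CD45.1+ cells the 0 called by edgeR became 57 with no filter, 1 with plasma cells and 0 to 9 without each mouse, the highest without wt/wt mouse 2. Between the sorts 331 became 189 with DESeq2, 817 with no filter, 205 with the 3-fold rule, 1976 with plasma cells, 145 in the Activated/Memory-like cells only, 687 without them and 29 to 1646 without each mouse, the extremes being mice 1 and 3. For the difference of genotype effects 3 became 49 with no filter, 1 with the 3-fold rule, 26 with plasma cells, 5 without the Activated/Memory-like cells, 7 with the 3-fold rule and those cells only, 1 with no replicate block and 2 to 37 without each mouse, the highest without wt/wt mouse 3. The difference in the share of Activated/Memory-like cells in the CD45.2+ sort went from -8.46 to -19.2 percentage points when clustered with the 8 members and to -20.4 with 5% mitochondrial counts and 500 genes (exact permutation p = 0.10 each, the smallest possible). The causes were not tested.

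The genotype calls of Plac8 and Ackr2 and the sort call of Pcp4 kept their direction over non-plasma cells in every alternative run, though not their side of the threshold, as given with each result; in Activated/Memory-like cells only, Pcp4 between the sorts was -0.11. Without a replicate block no other call of a member changed. DESeq2 gave Ackr2 no adjusted p by genotype. With no filter on low counts Pcp4 passed by genotype in CD45.2+ cells, Pcp4, Plac8 and Tyrobp passed in CD45.1+ cells, and Cd38, Zeb2 and Ackr2 passed between the sorts; with plasma cells included Plac8, Cd38, Zeb2 and Ackr2 passed between the sorts. The other signs that turned belonged to values that had not passed. In CD45.1+ cells by group, Zeb2 (-0.22) became 0.09 with the 3-fold rule, 0.02 with plasma cells, 0.12 in Activated/Memory-like cells only, 0.26 with the 3-fold rule and those cells only and -0.37 to 0.07 without each mouse; in Activated/Memory-like cells only Tyrobp became 0.15 (0.01 with the 3-fold rule) and Ackr2 0.03; and Ffar2 ran from -0.74 to 0.34 without each mouse. Between the sorts the 3-fold rule gave -0.02 for Plac8, -0.05 for Tyrobp, -0.04 for Ffar2 and 0.06 for Nt5e. The Activated/Memory-like cells only gave -0.43 for Plac8, -0.23 for Cd38, -0.26 for Zeb2 and -0.58 for Ffar2, and together with the 3-fold rule -0.34 for Plac8, -0.29 for Cd38, -0.19 for Zeb2, -0.17 for Tyrobp, -0.52 for Ffar2 and -0.11 for Ackr2. No replicate block gave -0.1 for Ffar2, 5% mitochondrial counts and 500 genes gave 0.02 for Nt5e, plasma cells gave 0.3 for Nt5e, and leaving out the Lyz2 cells and wt/wt mouse 2 gave -0.15 for Ffar2 and 0.17 for Nt5e. Leaving out each mouse gave -0.01 to 0.41 for Plac8, -0.06 to 0.42 for Tyrobp, -0.15 to 0.5 for Ffar2 and -0.18 to 0.18 for Nt5e. By genotype in CD45.2+ cells Tyrobp became 0.06 with plasma cells, 0.17 with the 3-fold rule and Activated/Memory-like cells only, and -0.24 to 0.06 without each mouse. For the difference of genotype effects Pcp4 (0.05) became -0.06 with DESeq2, -0.01 with no filter, -0.62 with the 3-fold rule, -2.25 without the Activated/Memory-like cells and -0.43 to 0.74 without each mouse. Cd38 became -0.03 with no filter, -0.06 with the 3-fold rule, -0.01 with plasma cells, -0.07 without Activated/Memory-like cells, -0.18 with the 3-fold rule and those cells only and -0.19 to 0.13 without each mouse. Zeb2 (0) became -0.03 with DESeq2, -0.06 with no filter, -0.22 with the 3-fold rule, -0.01 with 5% mitochondrial counts, -0.14 without the highest Scrublet scores, -0.05 with plasma cells, -0.02 without Activated/Memory-like cells, -0.66 with the 3-fold rule and those cells only and -0.39 to 0.19 without each mouse, and Ffar2 ran from -1.11 to 0.04 without each mouse.

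Activated/Memory-like cells alone could not be tested by genotype in CD45.2+ cells or for the difference of effects, since the cpm/cpm mice held under 10 of them, and resolution 0.6 gave no such cluster.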
